A study of Mus musculus with 28 samples.

Results

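The binding of 4 Forkhead transcription factors was examined at Jarid2, Zmynd8 and Mta3, 3 mouse genes that encode proteins of chromatin-modifying complexes. Their events were those inside the gene or within 50 kb of either end of it, on the mm10 positions of the deposited lists. The windows held 323 events of 162571 in all 14 lists used, of which 131 belonged to Jarid2, 118 to Zmynd8 and 74 to Mta3. The 3 genes were selected on the events seen in these same lists, out of 21887 protein-coding genes, so their counts, positions and scores are described and not tested.

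ChIP-exo, which trims immunoprecipitated DNA with an exonuclease to the edge of the crosslinked protein, was applied to MC1 mouse embryonic stem (ES) cells, a 129S6/SvEvTac line. Each line carried 1 C-terminally His6-FLAG-tagged factor at Rosa26 that doxycycline (Dox) kept silent, and Dox was washed out while the cells were moved to differentiation medium. FoxA1 (3 libraries, 2 anti-FLAG and 1 anti-FoxA1) and FoxC1, FoxL2 and FoxP3 (2 anti-FLAG libraries each) were profiled after 24 h, with 1 combined list per factor. FoxA1 was also followed at 0, 6, 12, 24 and 48 h with anti-FLAG and with anti-FoxA1, 1 library and 1 list per time point. All lines therefore shared the transgene design, the Dox washout and the medium, and the factor in these cells is overexpressed and tagged. A line with no factor (2 libraries at 0 h) has no list used here, and the labels do not say whether each line is 1 clone.

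JARID2 is an accessory subunit of Polycomb repressive complex 2 (PRC2), which methylates histone H3 at lysine 27, and it helps to bring that complex to CpG-rich developmental genes in ES cells. ZMYND8 is a reader of acetylated and methylated histones that works with KDM5-family H3K4 demethylases and with the NuRD complex. MTA3 is one of the interchangeable MTA subunits of NuRD, which couples nucleosome remodelling to histone deacetylation. FoxA1 is best known as a pioneer factor of endoderm, FoxC1 as a regulator of mesoderm and the eye, FoxL2 of the ovarian granulosa cell and FoxP3 of the regulatory T cell.

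The lists ranged from 15 to 41726 events, each 1 bp wide with a whole-number score from 43 to a ceiling of 1000, on a scale that no source used here states. Scores were therefore set only against the other scores of the same list, as percentiles. The files hold no reads, so the depth of the libraries is unknown. There was 1 list per group, so no difference between lists or genes has a replicate check. Intervals are Wilson 95% intervals that cover the counting error of events only.

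FoxA1 had the most events around the 3 genes. The combined FoxA1 list placed 26 events at Jarid2, 23 at Zmynd8 and 16 at Mta3, where 74.2% of protein-coding genes had at least 1 event and the median gene had 2. As many events or more were found at 18 genes (0.0822% of protein-coding genes) for Jarid2, at 33 genes (0.151%) for Zmynd8 and at 156 genes (0.713%) for Mta3, each count including the gene itself. The windows are long, so densities were also taken, and these placed the genes less far from the rest. Per 100 kb of window the combined FoxA1 list had 8.94 events at Jarid2, 10.7 at Zmynd8 and 7.35 at Mta3, against a median of 1.29 over all genes. As dense or denser were 173 genes (0.790%) for Jarid2, 71 (0.324%) for Zmynd8 and 408 (1.86%) for Mta3.

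The other factors split the 3 genes differently. FoxC1, with the shortest of the combined lists, had 0 events at Jarid2, 5 at Zmynd8 and 2 at Mta3, where 7.69% of all genes had any. FoxL2 had 2 events at Jarid2, 3 at Zmynd8 and 8 at Mta3, where 32.3% of all genes had any. FoxP3 had 8 events at Jarid2, 5 at Zmynd8 and 9 at Mta3, where 21.6% of all genes had any. Of the 3 genes, Jarid2 thus had the most FoxA1 events, Zmynd8 the most FoxC1 events, and Mta3 the most FoxL2 and FoxP3 events.

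Set against the length of each list, Zmynd8 held 4.50 of every 1000 FoxC1 events (interval 1.92 to 10.5) and 0.698 of every 1000 FoxA1 events (0.465 to 1.05). For FoxC1, 11 genes (0.0503%) had as many events as Zmynd8 or more, and 31 (0.142%) were as dense or denser. Mta3 held 2.05 of every 1000 FoxP3 events (1.08 to 3.90) and 0.486 of every 1000 FoxA1 events (0.299 to 0.789). As many FoxP3 events or more were seen at 6 genes (0.0274%), and as many FoxL2 events or more at 15 (0.0685%). As dense or denser were 32 genes (0.146%) for FoxP3 and 70 (0.320%) for FoxL2. At Jarid2 the FoxP3 share of 1.82 per 1000 (0.925 to 3.60) stood beside a FoxA1 share of 0.789 (0.539 to 1.16), and the FoxC1 count of 0 allowed up to 3.44 per 1000. Differences between these shares were not tested, since the genes were chosen on events of these same lists and the events of a window are neighbours.

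**Figure D1:**
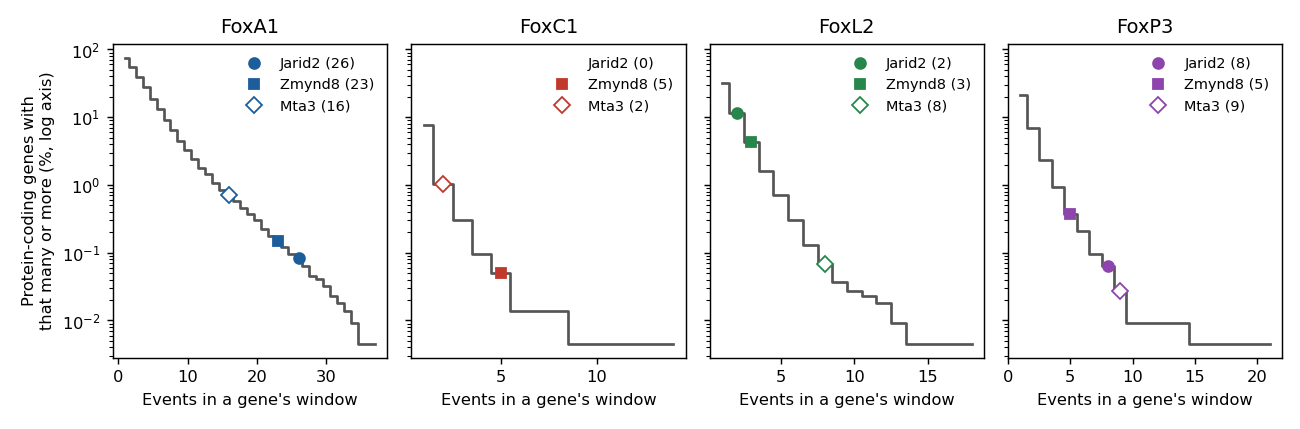
Share of protein-coding genes (%, log axis) with at least a given number of events in the gene or within 50 kb, in the combined list of each factor at 24 h. The grey steps are all 21887 genes and the points are Jarid2, Zmynd8 and Mta3 at their own counts, given in each legend, with no point for Jarid2 in the FoxC1 panel because its count was 0. In the FoxA1 panel the points lie at 0.0822%, 0.151% and 0.713%.

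Jarid2 (gene ID 16468) covers chr13:44730774-44921643 in GRCm38.p6, 190870 bp on the plus strand, with starts at 44730774 and 44731271 in the RefSeq promoter table. Both promoters are rich in CpG dinucleotides, with 24 and 23 in 300 bases against a median of 7 over 32851 promoters. As many or fewer were found in 81.6% and 80.0% of those promoters, so such counts are not rare. They are shown because events of FoxA1 and FoxP3 gathered around this end of the gene and none fell in these bases. The stretches run from 250 bases before to 50 bases after each start, chr13:44730524-44730823 and chr13:44731021-44731320 on the plus strand (RefSeq, GRCm38.p6), with each CpG in capitals.
Jarid2 first start: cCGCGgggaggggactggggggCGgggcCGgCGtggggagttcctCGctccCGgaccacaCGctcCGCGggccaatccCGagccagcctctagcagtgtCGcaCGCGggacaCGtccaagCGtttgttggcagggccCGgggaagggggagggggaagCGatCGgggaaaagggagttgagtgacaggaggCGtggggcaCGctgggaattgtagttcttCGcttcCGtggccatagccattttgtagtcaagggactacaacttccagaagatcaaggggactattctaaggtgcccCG
Jarid2 second start: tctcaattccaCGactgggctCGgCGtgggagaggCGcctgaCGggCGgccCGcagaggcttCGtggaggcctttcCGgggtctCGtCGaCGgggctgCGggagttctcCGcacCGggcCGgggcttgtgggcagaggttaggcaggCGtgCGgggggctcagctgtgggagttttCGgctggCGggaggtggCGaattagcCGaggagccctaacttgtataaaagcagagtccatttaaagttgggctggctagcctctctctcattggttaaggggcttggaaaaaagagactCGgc

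Events at Jarid2 were concentrated on the start-site side. Over all lists, where a site called in several lists counts at least once for each, 70 of the 131 events lay in the 50 kb before the gene. Of 4 equal parts of the gene, the part next to the start held 40, the following parts held 7, 2 and 4, and the far side held 8. All 8 far-side events lay in Dtnbp1, which encodes a subunit of an endosomal trafficking complex and whose annotated interval lies just past the end of Jarid2. In the combined FoxA1 list 17 of 26 events lay before the gene and 6 in the first of those parts. FoxP3 followed the same layout, with 6 of 8 events before the gene. The nearest event to the start at 44730774 was a FoxP3 event at 44732635 with a score of 49, 1861 bp away.

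The highest FoxA1 score at Jarid2 was 924, the 96.2th percentile of the combined list, at 44735588, which is 4814 bp inside the gene. The same site scored 644 and 463 with anti-FLAG at 24 and 48 h, and 160, 747 and 398 with anti-FoxA1 at 12, 24 and 48 h. It stood at the 84.0th percentile with anti-FoxA1 at 12 h and between the 92.4th and the 98.1th in the other lists that called it. A second strong site lay 28645 bp before the gene around 44702129. There the combined FoxA1 score was 863, the anti-FLAG scores were 503 and 371, and the anti-FoxA1 scores were 103, 644 and 629. No other factor was called at either site.

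At 44740582, 9808 bp inside Jarid2, 6 FoxA1 lists placed their events within 2 bp of each other. The scores there were 609 in the combined list, 353 and 96 with anti-FLAG at 24 and 48 h, and 64, 481 and 388 with anti-FoxA1 at 12, 24 and 48 h. FoxP3 led at another place before the gene, 25104 and 24995 bp from it. FoxP3 events at 44705671 and 44705779 both reached the ceiling of 1000, a score that 28 of the 4385 FoxP3 events had. The combined FoxA1 list had scores of only 63 and 104 at these positions, its 21.3th and 49.4th percentiles, although anti-FoxA1 at 24 h scored the first of them at 354, the 91.4th percentile.

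Of the 45 Jarid2 sites made by joining events of any list within 100 bp, 35 were called for FoxA1 alone and 6 by FoxA1 with FoxP3, all 6 of them before the gene. FoxL2 shared 1 site with FoxA1, at 44724591 with a score of 49. The remaining sites were 1 with FoxL2 alone and 2 with FoxP3 alone, all inside the gene. FoxP3 events at Jarid2 therefore mostly lay at FoxA1 sites, 6 of 8 (75.0%, interval 40.9 to 92.9) against 42.6% of the whole FoxP3 list.

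**Figure D2:**
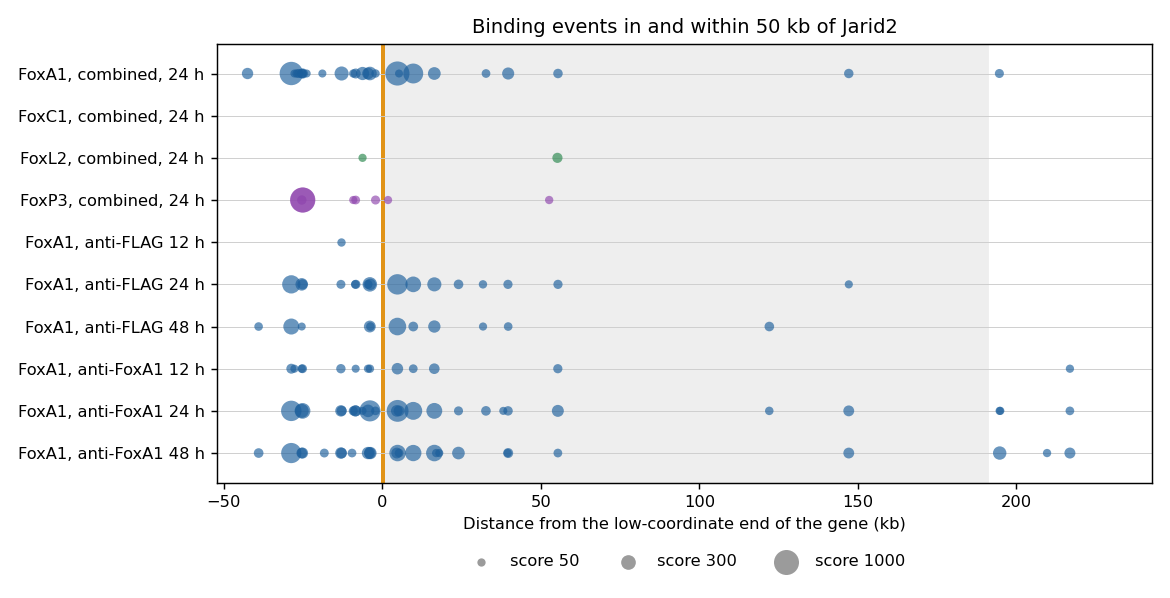
Events in and around Jarid2, plotted by distance in kb from the low-coordinate end of the gene (horizontal axis) for each list with at least 1 event near any of the 3 genes (rows). Point area grows with the score, the grey band is the gene, which is read from left to right, and orange lines are the starts in the promoter table. Most points lie before the gene or in its start-site part, the FoxC1 row is empty, and the overlapping pair of FoxP3 points with scores of 1000 stands left of the gene.

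Zmynd8 (gene ID 228880) covers chr2:165784152-165898981, 114830 bp, and is read from the minus strand. The promoter table gives it 5 starts, from 165884838 down to 165858173, all inside the annotated interval. The promoter of the start at 165882278 is shown because the event nearest to any start of the 3 genes lay beside it (none is listed for Mta3). It covers chr2:165882229-165882528 on the minus strand (RefSeq, GRCm38.p6), printed in the direction of transcription with its 7 CpG dinucleotides in capitals.
Zmynd8 start at 165882278: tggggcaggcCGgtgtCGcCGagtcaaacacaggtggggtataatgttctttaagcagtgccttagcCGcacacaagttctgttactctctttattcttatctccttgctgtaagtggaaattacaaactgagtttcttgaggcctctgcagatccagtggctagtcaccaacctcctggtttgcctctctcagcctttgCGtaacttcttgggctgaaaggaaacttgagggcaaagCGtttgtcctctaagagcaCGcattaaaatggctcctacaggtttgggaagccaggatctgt

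That nearest event was at 165882932, 654 bp before the start, and was called only with anti-FoxA1 at 48 h with a score of 111. The side of Zmynd8 with the most events was the one beyond its start-site end, at high coordinates. Over all lists, with a site counted again in each list that called it, 46 of 118 events lay on that side and 21 on the opposite side. The 4 equal parts of the gene held 21, 11, 11 and 8, counted from the start-site end. All 21 events of the opposite side lay in Eya2, a neighbouring gene that encodes a transcriptional coactivator with phosphatase activity.

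The site at 165894438 was the only one near the 3 genes that all 4 factors shared. It lies 4543 bp inside the annotated end of Zmynd8 and 9600 bp before the nearest start in the promoter table. FoxP3 scored 1000 there (its 99.7th percentile), FoxC1 550 (98.8th), FoxL2 210 (93.4th) and FoxA1 211 (73.5th). The 4 events spanned 165894417 to 165894444, and the FoxL2 and FoxP3 events had the same base. It thus stood near the top of the lists of FoxC1, FoxL2 and FoxP3 but not of the FoxA1 list.

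FoxA1 was called at this site by both antibodies from 12 h, but with modest scores. Anti-FLAG scored it 45 at 12 h and 91 at 24 h and did not call it at 48 h. Anti-FoxA1 scored it 145, 92 and 61 at 12, 24 and 48 h, which are the 81.3th, 53.0th and 26.6th percentiles of those lists. It was the 1 site of the 20 shared by the anti-FoxA1 lists of 12 and 24 h whose percentile was lower at 24 h. A further FoxP3 event with a score of 688 lay at 165894614, with combined FoxA1 at 49 within 100 bp.

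FoxA1's own strongest site at Zmynd8 was outside the gene, 14391 bp beyond the high-coordinate end. The combined list had events at 165913306 and 165913380 with scores of 1000 and 962. Anti-FLAG scored the site 149, 1000 and 464 at 12, 24 and 48 h. Anti-FoxA1 called a pair at 12 h (168 and 206) and at 24 h (280 and 727), and 1 event of 859 at 48 h. This was the only site near the 3 genes called in all 7 FoxA1 lists from 12 h on. FoxC1 was called there too, with a score of 54, its 32.1th percentile.

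All 5 FoxC1 events at Zmynd8 coincided with a combined FoxA1 event (interval 56.6 to 100%), against 53.3% of the whole FoxC1 list. Read the other way, 6 of 23 FoxA1 events at Zmynd8 had a FoxC1 event within 100 bp (26.1%, 12.5 to 46.5), against 1.94% (1.79 to 2.09) of all FoxA1 events. The FoxC1 event at 165913302 counts there for both FoxA1 events of the pair at 165913306 and 165913380. Zmynd8 was chosen on events of these same lists, so neither difference from a whole list was tested. Of the 39 sites in the window, 28 were FoxA1 alone, 4 FoxA1 with FoxC1, 3 FoxA1 with FoxP3 and 1 all factors. FoxL2 alone had 2 sites and FoxP3 alone had 1, all of them inside the gene.

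**Figure D3:**
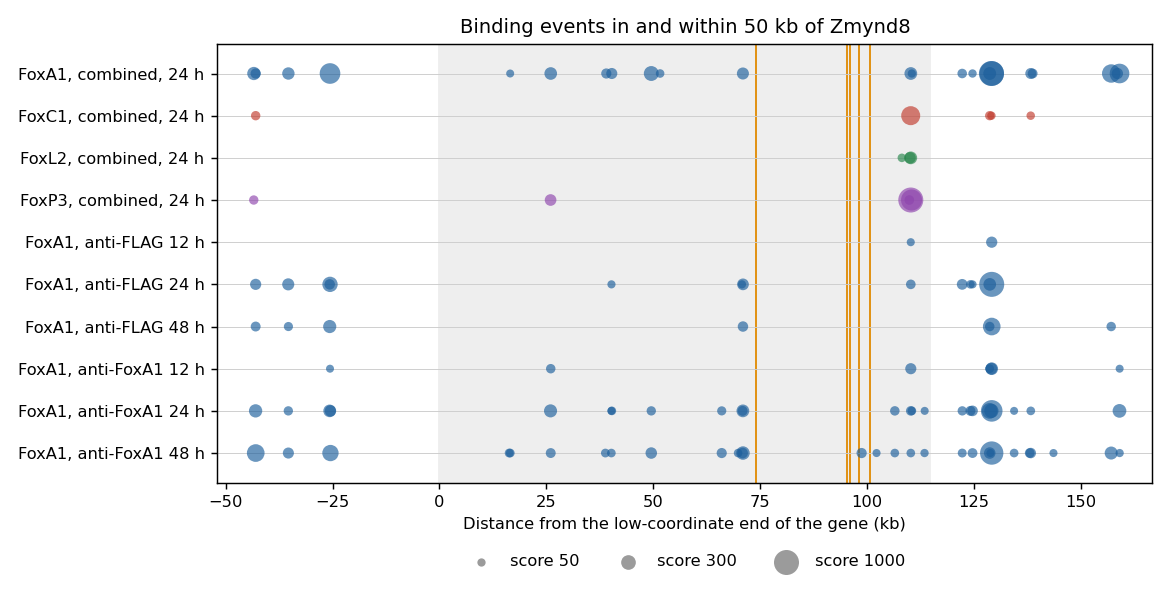
Events in and around Zmynd8, drawn as for Jarid2, with distance in kb from the low-coordinate end. The gene (grey band) is read from right to left, and the orange lines are its starts in the promoter table. Large FoxC1 and FoxP3 points stand over each other at 110.3 kb, the site shared by all 4 factors, and the large FoxA1 points at 129.2 kb lie outside the gene.

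Mta3 (gene ID 116871) covers chr17:83706163-83823715, 117553 bp. It has no entry in the promoter and strand table, so the sides of the gene are named by coordinate. Its events lay inside the gene and on the low-coordinate side. Over all lists, with a site counted again in each list that called it, 34 of 74 were before the low end. The 4 equal parts of the gene held 8, 10, 16 and 5, counted from the low end. The high-coordinate side had 1 event, in Haao, which encodes an enzyme of tryptophan breakdown. Inside Mta3, 9 events fell in the long non-coding gene Gm46597, all at 1 site called in 6 FoxA1 lists.

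FoxL2 and FoxP3 events lay mostly on the low-coordinate side of Mta3, while FoxA1 events lay both there and inside the gene. On the low-coordinate side lay 7 of 8 FoxL2 events and 8 of 9 FoxP3 events, but 8 of 16 combined FoxA1 events. Of the FoxA1 events, the gene itself held 8 of 16 in the combined list, 5 of 6 with anti-FLAG at 24 h and 7 of 11 with anti-FoxA1 at 24 h. FoxP3 events coincided with combined FoxA1 events in only 1 of 9 cases (11.1%, 1.99 to 43.5), against 42.6% of the whole FoxP3 list. With FoxL2 events they coincided in 4 of 9 (44.4%, 18.9 to 73.3), against 15.0% of the whole FoxP3 list.

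Of 15 sites without any FoxA1 event near the 3 genes, 9 belonged to Mta3. At 83689345, FoxC1 scored 153, FoxL2 122 and FoxP3 57, and the nearest FoxA1 event of any list was 368 bp away with a score of 89. At 83689933, FoxL2 scored 209 and FoxP3 87, and the same FoxA1 event lay 220 bp away. At 83690799, FoxL2 scored 108 and FoxP3 279, with a FoxA1 event of score 63 at 279 bp. These 3 sites thus had FoxA1 events close by but outside the 100 bp within which events were joined. The highest FoxL2 score of the window, 388 or the 98.6th percentile, stood alone at 83685714, and the nearest FoxA1 event was 2762 bp away.

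The FoxA1 scores of Mta3 reached less high than those of the other genes. The highest in the combined list was 391, the 86.7th percentile, at 83688490. Its median was 76 (32.4th percentile), against 90.5 at Jarid2 and 181 (69.3th) at Zmynd8. The Jarid2 median was thus also below the list median of 106. The order of the medians depended on the list. Mta3 again had the lowest median percentile with anti-FoxA1 at 24 h (50.7, against 67.4 at Jarid2 and 55.1 at Zmynd8). At 48 h that antibody gave 65.4 at Mta3, 67.6 at Jarid2 and 52.9 at Zmynd8. Anti-FLAG at 24 h gave 50.4, 47.6 and 63.3 in the same gene order. Inside Mta3, events at 83777539 and 83777624 formed a pair with combined scores of 377 and 152. The pair was 85 bp apart in the combined list, 91 bp with anti-FoxA1 at 24 h (scores 410 and 145) and 85 bp with anti-FoxA1 at 48 h (260 and 230). Anti-FLAG called 1 event of the pair at 24 h (199) and 1 at 48 h (151).

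A site 3427 bp inside the low end, at 83709590, was shared by FoxA1, FoxC1 and FoxL2, with scores of 98, 53 and 47. FoxA1 scored 193 and 92 there with anti-FLAG at 24 and 48 h, and 74, 209 and 128 with anti-FoxA1 at 12, 24 and 48 h. No score of the combined lists passed the list's median there. On the low-coordinate side, 38731 bp before the gene, 1 site joined FoxA1 (43), FoxL2 (98) and FoxP3 (76), around 83667432.

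**Figure D4:**
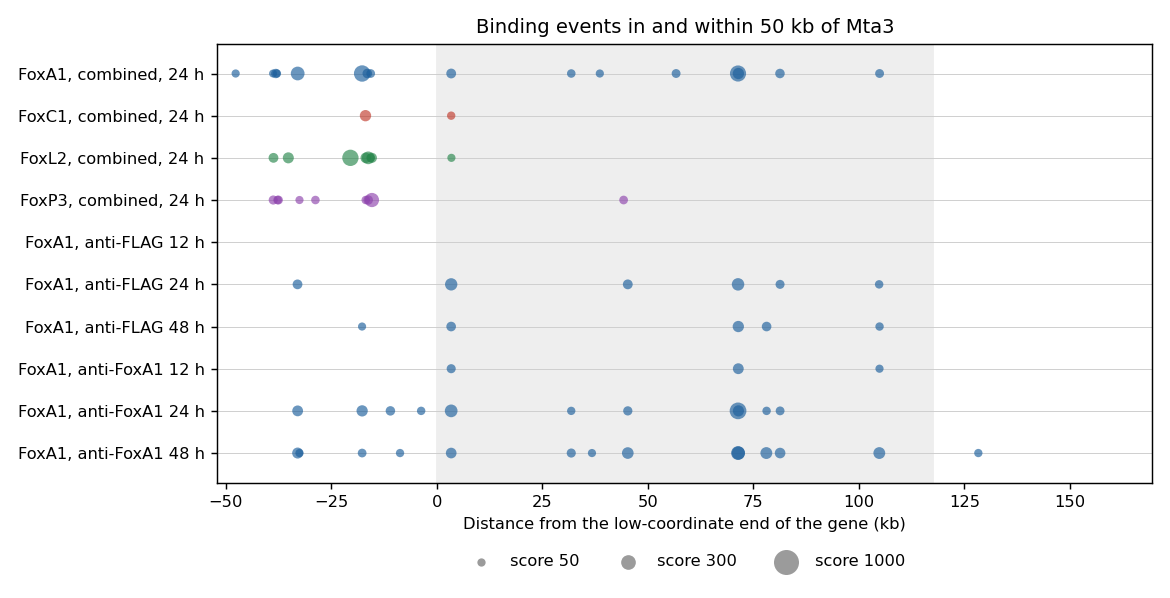
Events in and around Mta3, drawn as for Jarid2, with distance in kb from the low-coordinate end and with no start sites drawn. FoxL2 and FoxP3 points lie almost wholly to the left of the gene (7 of 8 and 8 of 9), while FoxA1 points lie both to the left of the gene and inside it.

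Across the 3 genes the combined lists made 79 sites. Of these 58 were called for 1 factor, 17 for 2, 3 for 3 and 1 for all 4. Sites of 2 or more factors were 26.6% of the total (18.1 to 37.2), against 8.60% (8.33 to 8.87) of 40974 sites in the whole lists. The share was 24.1% (12.2 to 42.1) at Jarid2, 32.0% (17.2 to 51.6) at Zmynd8 and 24.0% (11.5 to 43.4) at Mta3. The genes were chosen on events of these same lists, so the difference from the whole lists was not tested. Each gene's share rests on 25 to 29 sites, which are neighbours and not replicates. The second factor at these sites was FoxP3 in 6 of 7 cases at Jarid2, whereas Zmynd8 had 4 sites of FoxA1 with FoxC1 and 3 of FoxA1 with FoxP3, and Mta3 had 2 of FoxL2 with FoxP3.

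With the FoxA1 courses added, the 3 genes had 116 sites, 82 of FoxA1 alone and 22 of at least 2 factors. The additional shared site was at Mta3, where a FoxP3 event at 83673649 (score 47) lay 3 bp from an anti-FoxA1 48 h event (score 49). Of the 116 sites 48 were called in 1 list only. At the other extreme, 12 were called in at least 6 of the 7 FoxA1 lists from 12 h on, 6 at Jarid2, 4 at Zmynd8 and 2 at Mta3. All 12 were called at 12 h, which the rule itself fixed, since 2 of the 7 lists are of 12 h. Of the 12 sites, 7 were FoxA1 sites alone and 5 also had another factor. They were 2 to 194 bp wide over all their lists, and 6 were narrower than 30 bp.

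**Figure D5:**
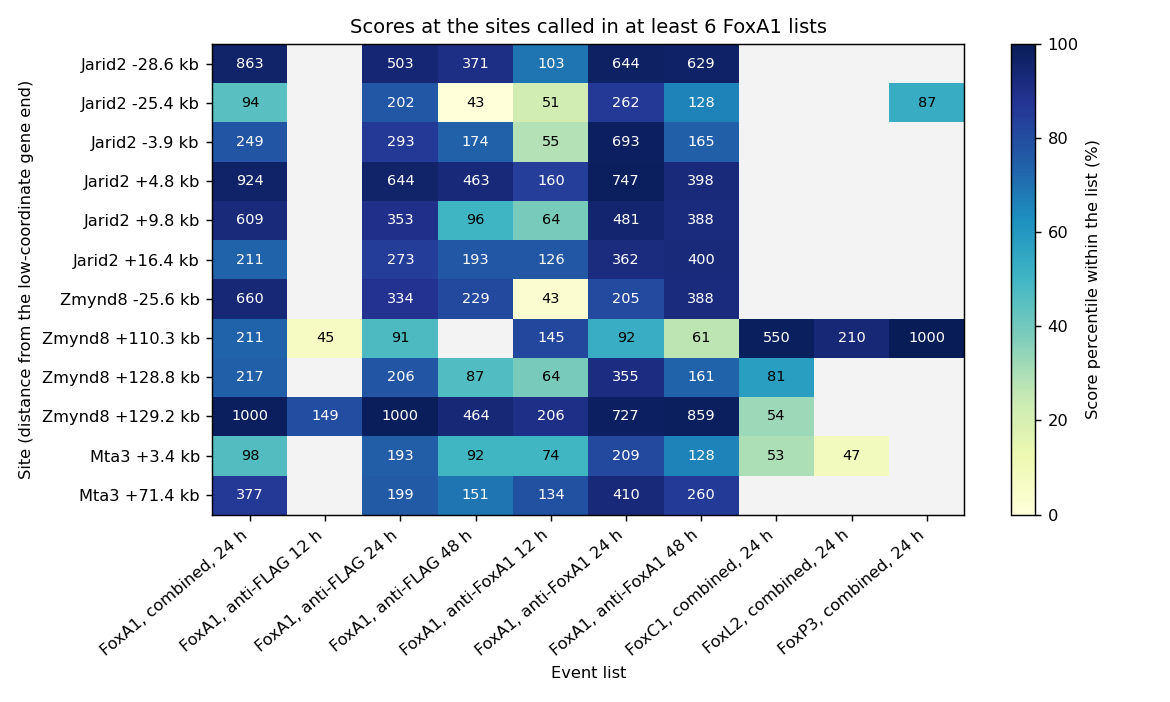
The highest score of each of the 12 recurrent FoxA1 sites (rows, named by distance in kb from the low-coordinate gene end) in each list (columns), with the colour giving the percentile of that score within its list. Grey cells had no event. The site at Zmynd8 +129.2 kb is filled in all 7 FoxA1 columns, and the one at +110.3 kb has its darkest cells under FoxC1, FoxL2 and FoxP3.

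The FoxA1 time courses started from empty windows. At 0 h neither antibody placed an event at the 3 genes, where 0% (anti-FLAG) and 0.0731% (anti-FoxA1) of all genes had any. At 6 h there was again none, where 0.0548% and 0.626% of all genes had any. These lists had 15 to 86 events in the whole genome. They are the only lists from cells before or soon after Dox removal, and at their length they could show few sites.

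At 12 h anti-FoxA1 placed 13 events at Jarid2, 7 at Zmynd8 and 3 at Mta3, where 37.8% of all genes had any. As many as at Jarid2 or more were seen at 3 genes (0.0137%), and 62 genes (0.283%) were as dense or denser. Anti-FLAG placed 1, 2 and 0 at 12 h, where 10.5% of all genes had any. At 24 h the counts at Jarid2, Zmynd8 and Mta3 were 27, 24 and 11 with anti-FoxA1 (74.3% of all genes) and 17, 13 and 6 with anti-FLAG (52.8%). At 48 h they were 26, 29 and 14 with anti-FoxA1 (77.4%) and 11, 7 and 5 with anti-FLAG (50.3%). The anti-FLAG counts were thus lower at 48 h than at 24 h at each gene, while the anti-FoxA1 counts were 1 lower at Jarid2 and higher at the others.

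Joined over both courses, the windows had 82 FoxA1 sites. The first call came at 12 h for 22 (26.8%, 18.4 to 37.3), at 24 h for 40 (48.8%, 38.3 to 59.4) and at 48 h for 20 (24.4%, 16.4 to 34.7). In the whole courses 15.6%, 54.4% and 29.8% of 52555 sites were first called at these times. Early sites were 13 of 36 at Jarid2 (36.1%, 22.5 to 52.4), 6 of 31 at Zmynd8 (19.4%, 9.19 to 36.3) and 3 of 15 at Mta3 (20.0%, 7.05 to 45.2). Jarid2 thus held 13 of the 22 early sites. With only the events at or above the median score of their list, the share for the 3 genes was 19.6% against 16.6%.

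Of the 22 sites first called at 12 h, 20 were called at 48 h, where 7129 of 8179 such sites were in the whole courses. Both antibodies found 18 of the 22, against 5865 of 8179. Of the 20 first called at 48 h both found 2, against 1031 of 15665. Early sites near the 3 genes were thus mostly called again later, as such sites were in the whole courses. A time of first call is not a time of first binding, since the lists at 12 h were shorter and the depth of each library is unknown.

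Scores ranked higher within their list at 24 h than at 12 h, but a percentile depends on which other events the list holds. The anti-FoxA1 list had 8345 events at 12 h and 35134 at 24 h, so a higher rank is not by itself a measure of stronger binding. With anti-FoxA1, 19 of 20 sites called at both times had a higher percentile at 24 h, with a median difference of 29.6 percentile points. Over the whole lists 14.7% of 7300 such sites had a lower percentile, and the median difference was 20.1. With anti-FLAG, all 18 sites called at 24 and 48 h had a lower percentile at 48 h, 9 at Jarid2, 6 at Zmynd8 and 3 at Mta3. The median difference was -11.1, where over the whole lists 55.1% of 9620 sites were lower with a median difference of -1.50. With anti-FoxA1 22 sites were higher and 22 lower at 48 h than at 24 h, where 41.2% of 24509 sites were lower in the whole lists with a median difference of 2.96. Among the 12 recurrent sites 9 were lower with anti-FoxA1. There was 1 library per time point and antibody, so a difference between libraries and a difference between times cannot be told apart.

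Most anti-FLAG events had an anti-FoxA1 partner. At 24 h, 32 of 36 anti-FLAG events (88.9%, 74.7 to 95.6) had an anti-FoxA1 event within 100 bp, against 86.0% of the whole list. In the other direction 36 of 62 anti-FoxA1 events (58.1%, 45.7 to 69.5) had an anti-FLAG event, against 40.5%. The same share was 4 of 23 (17.4%, 6.98 to 37.1) against 18.7% at 12 h and 22 of 69 (31.9%, 22.1 to 43.6) against 31.0% at 48 h. The share was thus above that of the whole list at 24 h and near it at the other times. Over both courses 38 of 82 sites (46.3%, 36.0 to 57.1) were called by both antibodies, 42 by anti-FoxA1 alone and 2 by anti-FLAG alone. The share called by both was 33.7% (33.3 to 34.1) of all course sites.

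No event of any list fell within the 13 promoters of 300 bases that the table holds for the windows, 7 of them of Jarid2 and Zmynd8. Of all 32851 promoters 881 (2.68%) held an event in any of the 14 lists. The Forkhead core motif TGTTTAC and its variants were searched on both strands. These variants were TATTTAC, then TGTTGAC and lastly TATTGAC. None of the 4 was among the letters of the 7 promoters of Jarid2 and Zmynd8, and 3293 of all promoters (10.0%) held at least 1 of them. The bases under the events themselves were not used here.

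The windows were cut at 50 kb, and the events near that limit were as follows. At Jarid2 the outermost event inside the low edge was 42442 bp from the gene (FoxA1, score 153), and the next one outside was at 51132 bp (FoxA1, score 65). At Mta3 they were at 47634 bp (FoxA1, score 48) and 51355 bp (FoxA1, score 73). At Zmynd8 the low side had events at 43451 and 70790 bp and the high side at 44329 and 62459 bp. The next event beyond the high edge was 86788 bp from Jarid2 and 83896 bp from Mta3.

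Among 62 genes of related chromatin complexes, 57 had a combined FoxA1 event, 7 a FoxC1 event, 23 a FoxL2 event and 23 a FoxP3 event. Over all protein-coding genes the shares with an event were 74.2%, 7.69%, 32.3% and 21.6%, and the FoxC1 and FoxL2 counts were near theirs. Jarid2, Zmynd8 and Mta3 had ranks 1, 2 and 3 of the 62 by FoxA1 count, as their choice would give. Their windows are long, and the order by density differed. Per 100 kb Zmynd8 had 10.7 FoxA1 events, Cbx7 9.66, Jarid2 8.94, Rbbp4 8.58 and Mta3 7.35. Mta3 had the most FoxL2 and FoxP3 events of the 62 and Zmynd8 the most FoxC1 events. With anti-FoxA1 at 24 h Mta3 had rank 6.

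All 12 PRC2 genes had a FoxA1 event (74.2% of all genes did), with a median of 5.50 per gene against 2.00 over all genes. After Jarid2 the most were at Rbbp4, a histone chaperone shared with NuRD, with 11, and at Eed, the PRC2 subunit that reads methylated lysine 27, with 9. Of 15 NuRD genes 14 had one, with a median of 3.00, and after Mta3 and Rbbp4 came the scaffold subunit Gatad2a with 8. Of 13 partners of ZMYND8 and other acetyl-lysine readers 12 had one, with a median of 4.00, and Baz2b (12) and Brd1 (9), both bromodomain proteins, followed Zmynd8.

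Of 19 PRC1 genes 16 had a FoxA1 event, again beside 74.2% of all genes, with a median of 3.00. Cbx7, a chromobox subunit of PRC1 in ES cells, had 15, Kdm2b, which binds unmethylated CpG islands, had 6, and the Polyhomeotic gene Phc1 had 6 with 3 FoxC1 and 6 FoxP3 events. All 6 genes of a list of H3K4 demethylases and related genes, with Jarid2 among the related genes, had a FoxA1 event (median 3.50). The demethylase genes Kdm5a and Kdm5b had 6 and 4 against 26 for Jarid2. The lists share genes, such as Rbbp4 and Jarid2, and were drawn up with results of these data known.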

How the data were processed

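Binding events of ChIP-exo libraries were used as deposited, with positions on mm10. The submitters' processing notes name BWA 0.7.17-r1188 for mapping, and also Picard and SAMtools. Per the file headers, ChExMix made the event lists. No source used here states the caller's version, thresholds or control, or how the authors combined the libraries of a factor. Each deposited event carries a score, a whole number from 43 to 1000.

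The labels gave 21 libraries for the 14 lists and the control line. For the second control library, the title says anti-FoxA1 and the characteristics say FLAG antibody. Some items of the series are not reported here.

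Events were counted inside each gene and within 50 kb of either end, using the RefSeq GRCm38.p6 gene table (the mm10 build) and its 21887 protein-coding genes. Events of different lists within 100 bp were joined into sites by single linkage. Percentiles rank a score within its own list, ties at their middle. Calculations used Python 3.11.15, SciPy 1.17.1 and Matplotlib 3.10.9, and the counting was tested on simulated events. Alternatives changed the window, the joining distance, the scores kept and the FoxA1 list. Strand and start sites came from the RefSeq promoter table, and exon positions were not used here.

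The genes named are Jarid2, Zmynd8 and Mta3, genes overlapping or nearest to their events, and the 3 genes of each related list with the most combined FoxA1 events. The members and the lists were chosen with earlier results of these data known.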

Additional observations from a re-analysis of the deposited data

How the results depend on the processing

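The counts depended mainly on the window and on the scores kept. Of 65 FoxA1 events at the 3 genes, 25 lay inside the genes and 42 within 20 kb, 31 scored at or above the median of their list, and the anti-FLAG 24 h list had 36. Of 7 FoxC1 events 2 lay inside and 4 reached the median score. Of 13 FoxL2 events 5 lay inside. Of 22 FoxP3 events 7 lay inside, 13 within 20 kb, and 10 reached the median score. The 21 sites of at least 2 combined lists became 4 inside the genes, 8 with scores from the median up and 2 where a shared base was asked for. The 1 site of all 4 factors became 0 with a shared base and 2 in a 100 kb window. The 22 sites first called at 12 h became 10 with scores from the median up. The 7 related genes with a FoxC1 event became 12 in a 100 kb window. Most of these alternatives hold fewer events by construction. Another 30 recomputed totals stayed within 1.5 times their value. The other recomputed values were those for single genes, shares and the totals of the FoxA1 course lists. Of these, 88 moved by more than that or beyond their interval, 80 down and 8 up, and 146 did not.

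No paired analysis was possible because each group has 1 list and the combined lists cannot be split, so leaving out a replicate was not run either. Motif counts at the events were not run, since they need the genome sequence. Depth is unknown, and it limits which weak sites a list holds.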

Other observations

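A second site of all 4 factors lay outside the Mta3 window, 72898 bp before the low end of the gene, and was singled out after its values were seen. FoxC1 scored 693 at 83633264, FoxA1 132 and FoxL2 142 at 83633265, and FoxP3 423 at 83633266, so that the events spanned 3 bases.

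Events of 1 list within 100 bp of each other were counted as pairs. With anti-FoxA1 at 24 h they made up 8 of 62 events at the 3 genes (12.9%) against 3.64% of the whole list, and in the combined FoxA1 list 4 of 65 (6.15%) against 1.67%. Anti-FLAG at 24 h and anti-FoxA1 at 12 and 48 h had 5.56%, 8.70% and 5.80% against 2.17%, 2.80% and 3.09%. Anti-FLAG had 0 of 23 at 48 h against 2.77% and 0 of 3 at 12 h against 2.42%. FoxC1, FoxL2 and FoxP3 had 0 of 7, 13 and 22, against 0.540%, 0.580% and 1.05% of their whole lists. Spacings were 72 to 97 bp in the 10 pairs found, 3 of which were the Mta3 pair near 83777539 and 3 the Zmynd8 pair near 165913306. All pairs were at Zmynd8 or Mta3 and none at Jarid2. Because the genes were chosen on events of these same lists, the differences from the whole lists were not tested.

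Paralogs of the members are named here after their values were seen. Mta1 had 3 combined FoxA1 events and Mta2 had 1, against 16 at Mta3, and FoxL2 had 0 and 1 against 8. Zmynd11, a reader related to ZMYND8, had 5 FoxA1 events against 23 at Zmynd8. With anti-FLAG, however, Mta1 had as many events as Mta3, 6 at 24 h and 5 at 48 h, and was denser (4.32 against 2.76 and 3.60 against 2.30 per 100 kb). With anti-FoxA1 at 48 h the counts were 9 at Mta1, 6 at Mta2 and 14 at Mta3, and per 100 kb 6.48, 5.44 and 6.44. The order of the MTA genes thus depended on the list.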
